A study of Drosophila melanogaster with 48 samples.

Results

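The ribosome-bound mRNA of 5 cytochrome P450 genes, of 17558 genes counted, was followed in fly astrocytes: Cyp4aa1, Cyp4p1 and Cyp4d21 of the CYP4 family, Cyp305a1 of the CYP2 clan and the mitochondrial P450 gene Cyp12d1-p. They were chosen by their rhythm: the study's ranking with JTK_CYCLE, a rank test that sets each gene against cosine curves, had been made on these same libraries, so everything that concerns their time course is a description and not a test. All 5 averaged 20 counts or more per library, a filter that 9392 genes passed. The RNA came from heads of Drosophila melanogaster that carried elav-Gal80, eaat1-Gal4 and UAS-EGFP-L10a, a tagged protein of the large ribosomal subunit that was pulled down with its RNA by TRAP (translating ribosome affinity purification). Flies were entrained in LD 12:12, moved to constant darkness (DD) and frozen every 4 h from 0 to 44 h, in biological replicates 1 and 2, which came from independent crosses. All groups shared this genotype and differed by design in the hour and the cross. The sample titles also carry letters. In replicate 1 these are b at 4, 12, 20 and 28 h, d and e at 16 h, and a at the other hours. In replicate 2 they are c and g throughout. What the letters stand for is not given in the sources used here, and their part in the values was not tested. The driver marks predominantly astrocytes and also some cortex glia, each sample pooled many heads, and neither the age nor the sex of the flies is given in the sources used here.

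Cytochrome P450 enzymes are heme proteins that insert oxygen into lipids, hormones, plant compounds and insecticides. Most fly P450s sit in the membrane of the endoplasmic reticulum and take their electrons from cytochrome P450 reductase, whereas the mitochondrial clan uses adrenodoxin-type proteins. Many P450 genes are induced by foreign compounds, and in Drosophila several are under clock control in the head and body. CYP4 enzymes are best known for the oxidation of fatty acids. Cyp4d21, also called sxe1 (sex-specific enzyme), is known from the fat body of male heads, and Cyp12d1-p is one of a pair of near-identical genes that are induced by caffeine and phenobarbital.

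The 24 libraries held 6371034 to 37267216 counts on genes, with a median of 16080333.5. Reads that did not align uniquely made up 9.47% to 36.9% of the reads tallied in replicate 1, where the 16 h library was the low one and the other 11 lay at 21.7% or above, and 3.92% to 7.33% in replicate 2 apart from its 28 h library, with 47.0%. In that 28 h library 10 genes took 49.6% of the counts on genes. These 2 libraries stood apart from the rest. The astrocyte markers e (ebony) and Gabat, the 2 of 6 listed that could be matched to identifiers, were counted in every library, with summed normalized read counts of 2082 to 3654 in replicate 1 and 1430 to 3305 in replicate 2. The head fat body markers to (takeout) and sxe2, 2 of 8 listed, summed to 566 to 989.6 in replicate 1 and 435 to 805 in replicate 2.

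In the Release 6 annotation Cyp4aa1 (FBgn0034053) lies on chromosome arm 2R from 15942864 to 15947266 and overlaps COX6AL, mir-4919 and one end of Strn-Mlck. Cyp4p1 (FBgn0015037) lies on 2R from 9240041 to 9242139, inside the span of hig and between its paralogs Cyp4p2, 209 bp away, and Cyp4p3, 180 bp away. Cyp4d21 (FBgn0031925) lies on 2L from 7605600 to 7607701 and overlaps no other gene. Cyp305a1 (FBgn0036910) lies on 3L from 19810403 to 19813339 and overlaps no other gene, with Kap-alpha1 4 bp to the left and the clock gene cyc 430 bp to the right. Cyp12d1-p (FBgn0050489) lies on 2R from 11117225 to 11121884, near its copy Cyp12d1-d. Whether counting used strand is not given in the sources used here, so reads of overlapping genes cannot be told apart for Cyp4aa1 and Cyp4p1, and reads shared by the Cyp12d1 copies make the level of Cyp12d1-p uncertain. Levels were not compared between the genes, since exon lengths were not analysed here.

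Raw counts per library ran between 20 and 237 for Cyp4aa1, 133 and 1481 for Cyp4p1, 64 and 1258 for Cyp4d21, 66 and 1144 for Cyp305a1, and 25 and 475 for Cyp12d1-p. Counting error alone came to 22.4% at the lowest count of Cyp4aa1 and to 8.67% at the lowest of Cyp4p1. The spread between the replicates at the same hour, after each replicate was centred, had an SD on the log2 scale of 0.28 (Cyp4aa1), 0.36 (Cyp4p1), 0.38 (Cyp4d21), 0.31 (Cyp305a1) and 0.32 (Cyp12d1-p), against a median of 0.38 over all genes tested. Genes with a small spread were more likely to be chosen by their rhythm. The values that follow are normalized read counts, that is, counts after quantile normalization of the 9392 genes, which gives every library the same distribution.

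Cyp4aa1 was highest at 0 h on the first day and at 28 h on the second, and lowest in the subjective night. From 0 to 20 h in DD it had 148, 104, 84.3, 69.4, 56.1 and 119 normalized read counts in replicate 1 and 161, 98.3, 105, 54.3, 45.0 and 82.5 in replicate 2. Both replicates thus stood highest at 0 h and lowest at 16 h, with no overlap between the pairs of libraries at these hours. From 24 to 44 h it had 67.8, 171, 63.6, 103, 51.8 and 91.6 in replicate 1 and 75.3, 109, 83.1, 44.9, 53.2 and 34.2 in replicate 2. Both replicates peaked at 28 h and not at 24 h, the second subjective dawn. The lowest library of these hours was that of 40 h in replicate 1. In replicate 2 it was that of 44 h, where replicate 1 had 91.6. Over all 24 libraries the highest value was 5.0 times the lowest.

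Cyp4p1 was high through the subjective day. From 0 to 20 h it had 544, 916, 653, 616, 455 and 367 normalized read counts in replicate 1 and 1043, 743, 813, 612, 375 and 404 in replicate 2. The 16 h and 20 h libraries of both replicates lay below all 8 libraries of 0 to 12 h, while the hour of the highest value differed, 4 h in replicate 1 and 0 h in replicate 2. From 24 to 44 h it had 665, 1027, 549, 356, 351 and 576 in replicate 1 and 579, 601, 672, 632, 548 and 383 in replicate 2. The swing of these hours was steep in replicate 1, with 2.92 times between highest and lowest, and shallow in replicate 2, with 1.76 times. Its range over all libraries, 2.97 times, was the narrowest of the 5 genes.

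Cyp4d21 ran the other way, with its highest values in the subjective night. From 0 to 20 h it had 294, 318, 183, 357, 845 and 657 normalized read counts in replicate 1 and 391, 176, 428, 377, 622 and 562 in replicate 2. The 16 h and 20 h libraries of both replicates lay above all 8 libraries of 0 to 12 h. From 24 to 44 h it had 324, 363, 251, 406, 648 and 649 in replicate 1 and 554, 276, 233, 464, 768 and 704 in replicate 2. The 40 h and 44 h libraries of both replicates were again above the other 8 of that day, and the lowest was the 32 h library in each replicate. The highest value was 4.80 times the lowest.

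Cyp305a1 peaked early in the first subjective day and dropped sharply at mid-night. From 0 to 20 h it had 578, 774, 489, 466, 241 and 603 normalized read counts in replicate 1 and 479.9, 565, 469, 419, 124 and 309 in replicate 2. The 4 h library was highest and the 16 h library lowest in both replicates, with 3.22 times between them in replicate 1 and 4.55 times in replicate 2. From 24 to 44 h it had 466, 581, 324, 380.4, 186 and 374 in replicate 1 and 339, 299, 304, 255, 244 and 347 in replicate 2. The low at mid-night returned at 40 h in both replicates, but replicate 2 stayed within 1.42 times over these 6 libraries and had its highest value at 44 h. Its 6.23-fold range over all libraries was the widest of the 5 genes.

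Cyp12d1-p, the mitochondrial member, was lowest at 0 h and highest at 16 h. From 0 to 20 h it had 135, 187, 198, 245, 326 and 246 normalized read counts in replicate 1 and 94.7, 187, 131, 259, 311 and 240.1 in replicate 2. The replicates ran side by side on this day and the pairs of libraries at 0 h and 16 h did not overlap. From 24 to 44 h it had 241, 194, 278, 149, 379 and 305 in replicate 1 and 137, 109, 130.2, 233, 208 and 172 in replicate 2. Here they parted: replicate 1 was lowest at 36 h and highest at 40 h, whereas replicate 2 was highest at 36 h and lowest at 28 h, the library in which 10 genes took 49.6% of the counts. The highest value was 4.00 times the lowest.

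**Figure D1:**
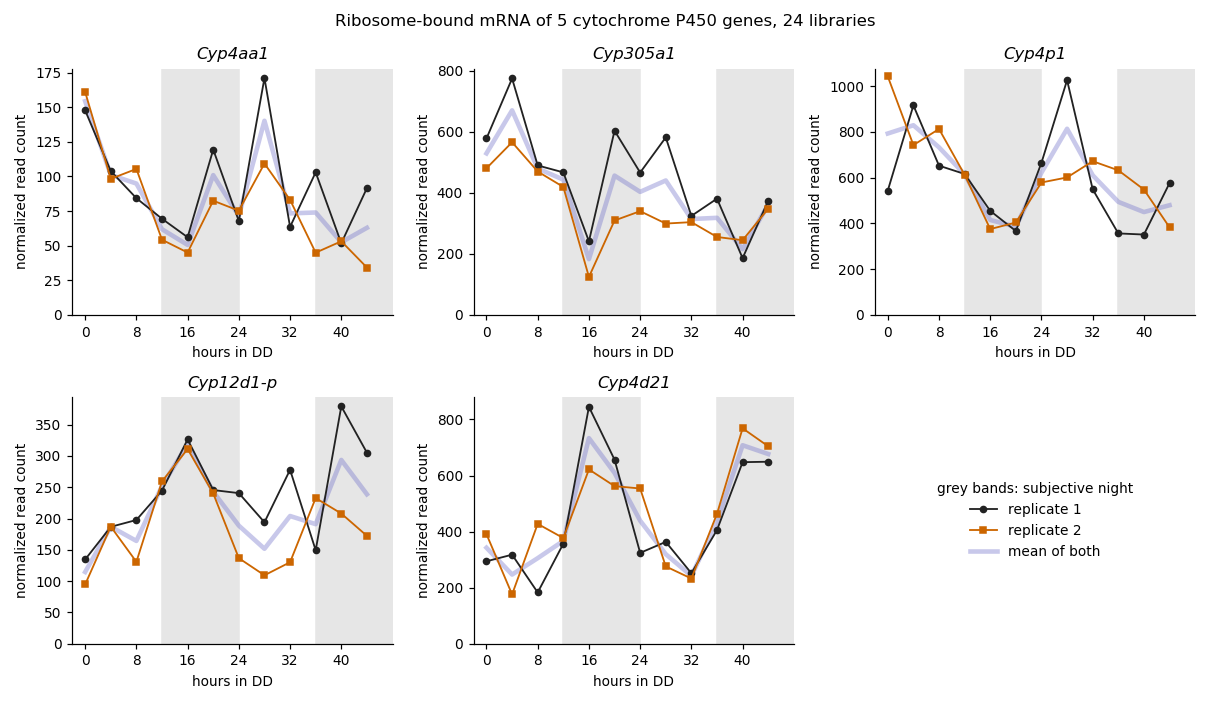
Normalized read counts (linear axes from 0) of the 5 genes against hours in DD, with replicate 1 as dark circles, replicate 2 as orange squares and the mean of both as a broad line. Cyp4aa1, Cyp305a1 and Cyp4p1 fall towards 16 h, where Cyp4d21 reaches 845 and 622 and Cyp12d1-p 326 and 311 in replicates 1 and 2.

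A 24 h cosine curve fitted by least squares to log2 CPM (counts scaled to the size of the library, with TMM factors) placed the 5 peaks in 2 clusters. The fitted peak, with its standard error over 24 libraries, lay at 2.84 ± 0.67 h for Cyp4aa1, 3.22 ± 1.00 h for Cyp305a1 and 4.58 ± 0.79 h for Cyp4p1. It lay at 15.7 ± 0.93 h for Cyp12d1-p and 17.8 ± 0.47 h for Cyp4d21. Within the early cluster neighbouring peaks were 0.37 ± 1.2 h and 1.37 ± 1.27 h apart, about the size of their errors, and the gap between Cyp12d1-p and Cyp4d21 was 2.12 ± 1.05 h. The gap between the clusters, from Cyp4p1 to Cyp12d1-p, was 11.1 ± 1.22 h. The errors of these gaps treat the peaks as independent, although they were fitted to the same 24 libraries. Hour 0 was read as subjective dawn; the clock gene per, whose mRNA rises in the early night, had its fitted peak at 14.1 ± 0.31 h in these libraries.

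The amplitude, the height of the curve from its mean to its peak on the log2 scale, was greatest for Cyp4d21 at 0.78 ± 0.10 (SE), which is a 2.94-fold difference between peak and trough. It was 0.59 ± 0.10 for Cyp4aa1, 0.53 ± 0.14 for Cyp305a1, 0.48 ± 0.12 for Cyp12d1-p and 0.46 ± 0.10 for Cyp4p1, with fitted peak-to-trough folds of 2.28, 2.08, 1.94 and 1.90. The SE ranges of these 4 amplitudes overlapped, and the differences between them were not tested. The median over the 5 genes was 0.53, against 0.16 over all 9392 genes. The curve accounted for 75.6% of the variance of Cyp4d21 and for 41.0% of that of Cyp305a1, the member it described least well.

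**Figure D2:**
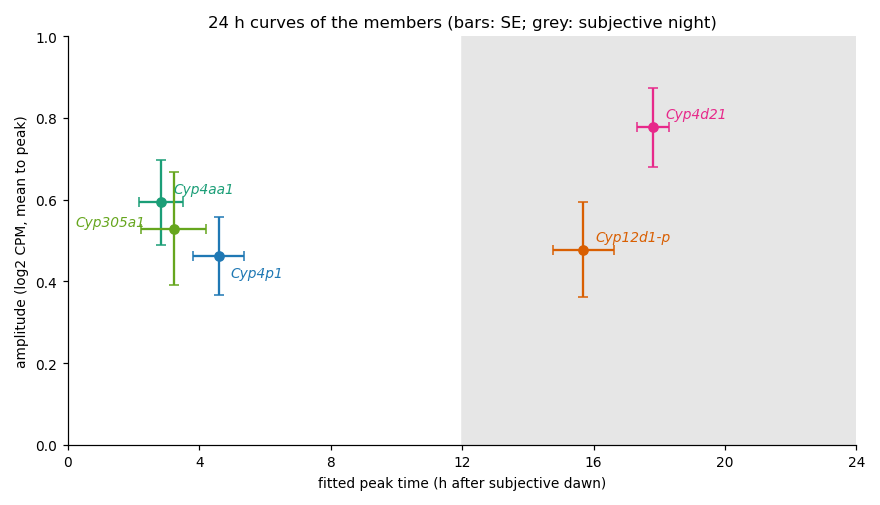
Fitted peak time (h after subjective dawn, horizontal axis) and amplitude (log2 CPM, vertical axis) of each gene's 24 h curve over 24 libraries, with bars for the SE. The early 3 genes lie between 2.84 and 4.58 h and the other 2 between 15.7 and 17.8 h.

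JTK_CYCLE called all 5 genes, as the choice of members required, with adjusted p below 0.05 and amplitudes over 0.5 normalized read counts, and it called 264 of the 9392 genes in all (2.81%). Its p is adjusted for the 18 curves tried within a gene and not over the genes. Its best curve had a period of 24 h for Cyp305a1 and Cyp4p1 and of 28 h for Cyp4aa1, Cyp12d1-p and Cyp4d21, with lags (peak times) of 4, 6, 2, 16 and 18 h in that order. With a period of 24 h alone the lag of Cyp4aa1 was 4 h and that of Cyp12d1-p 18 h. Adjusted p ran between 1.16e-05 and 0.0109 over the members, and the genes nearest to the threshold had 0.0473 inside it (2 genes) and 0.0516 outside it (31 genes). Of the 264 genes called, 111 had lags of 2 to 6 h and 47 had lags of 16 to 18 h. edgeR's quasi-likelihood test of the 24 h curve, adjusted by Benjamini-Hochberg over all genes, called 31 genes (0.330%) and gave an unadjusted p under 0.05 to 506 (5.39%). As a description, Cyp4d21 was the 1 member among the 31. The fit takes no account of the replicate; with the replicate as a block, 55 genes and 3 members (Cyp4d21, Cyp4aa1 and Cyp4p1) were called, and with either replicate alone 0 members were.

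The opposite course of the clusters can also be described within each library, where library size and scaling cancel. The genes were chosen by their rhythm in these libraries and the hours lie near their highs and lows. The direction of the ratios was thus given in advance and is no test. The ratio of the raw counts of Cyp4d21 to those of Cyp305a1 was 0.399, 3.42, 0.61 and 3.64 at 4, 16, 28 and 40 h in replicate 1, and 0.32, 4.91, 0.928 and 2.98 in replicate 2. In both replicates it was thus higher in the libraries of mid-night than in those of early day, and its highest value was 9.56 times its lowest in replicate 1 and 15.3 times in replicate 2. The ratio of Cyp12d1-p to Cyp4aa1 was 1.91, 7.35, 1.16 and 7.62 at the same hours in replicate 1, and 1.94, 8.35, 1.00 and 3.8 in replicate 2. Only the change of such a ratio over time has a meaning, since the genes differ in length.

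Over the 24 libraries, in log2 CPM centred within replicates, the 5 genes correlated as their peak times require. Pearson's r was 0.72 between Cyp4aa1 and Cyp305a1, 0.62 between Cyp305a1 and Cyp4p1, 0.57 between Cyp4aa1 and Cyp4p1 and 0.50 between Cyp12d1-p and Cyp4d21, and it ran between -0.83 and -0.42 for the 6 pairs across the clusters. The lowest was that of Cyp4aa1 with Cyp12d1-p.

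Whether the genes also moved together apart from the hour was asked of the difference between replicate 1 and replicate 2 at each of the 12 time points, in which the common time course cancels. None of the 10 pairs passed a two-sided permutation test after Benjamini-Hochberg adjustment over the pairs (all adjusted p of Pearson's r at 0.263 or above, of Spearman's rho at 0.238 or above). For Cyp4aa1 and Cyp305a1 r was 0.51 (permutation p = 0.0915, adjusted p = 0.263) and rho 0.45 (permutation p = 0.138, adjusted p = 0.275); without the 36 h and 44 h time points, the farthest from the median of Cyp4aa1, r was 0.80. For Cyp305a1 and Cyp12d1-p r was -0.49 (permutation p = 0.104, adjusted p = 0.263) and rho -0.55 (permutation p = 0.0664, adjusted p = 0.238), and r was -0.36 without the 20 h and 40 h time points. For Cyp4aa1 and Cyp4d21, whose time courses oppose each other, r was 0.50 (permutation p = 0.10, adjusted p = 0.263) and rho 0.55 (permutation p = 0.0688, adjusted p = 0.238). Without the 36 h and 44 h time points r was 0.71, and this sign was the opposite of that over all 24 libraries, where r was -0.42.

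The level of no member was past the threshold between the 2 biological replicates, but Cyp305a1 and Cyp12d1-p differed by about as much as the typical gene. Mean normalized read counts (SD over 12 time points each) were 94.1 ± 37.2 in replicate 1 and 78.9 ± 36.1 in replicate 2 for Cyp4aa1, and 589.6 ± 211 and 617 ± 192 for Cyp4p1. They were 441 ± 205 in replicate 1 and 463 ± 186 in replicate 2 for Cyp4d21, 455 ± 166 and 346 ± 121 for Cyp305a1, and 240.2 ± 73.0 and 184 ± 67.1 for Cyp12d1-p. The ranges over the hours overlapped widely for every gene. In edgeR's fit beside the 24 h curve 0 of the 5 members differed between the replicates, against 3114 of 9392 genes (33.2%; 42.2% at an unadjusted p under 0.05). The log2 ratio of replicate 1 to replicate 2 was 0.35 for Cyp305a1 (adjusted p = 0.124) and 0.31 for Cyp12d1-p (adjusted p = 0.119), and it lay between -0.10 and 0.07 for the other 3, with adjusted p of 0.625 or above. By least squares the differences in log2 CPM were 0.35 ± 0.18 for Cyp305a1 (SE, 95% confidence interval -0.03 to 0.74) and 0.29 ± 0.16 for Cyp12d1-p (-0.03 to 0.62). With the time point as a block Cyp305a1 passed (adjusted p = 0.0498), and with limma on the quantile normalized counts Cyp12d1-p did (adjusted p = 0.0476). The median log2 ratio was 0.07 over the members and -0.03 over all genes. The median of its size was 0.10 over the members and 0.32 over all genes. The ranking pooled both replicates with no replicate term, so genes whose level differed between them were less likely to be chosen. The tally of alignments that were not unique also differed between the replicates, and its part in the values above was not tested.

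No level passed the test of a difference between day 2 and day 1 in DD. Mean normalized read counts (SD over 12 libraries each) were 79.1 ± 37.1 on day 2 (24 to 44 h) and 94.0 ± 36.3 on day 1 (0 to 20 h) for Cyp4aa1, and 578 ± 181 and 628 ± 218 for Cyp4p1. They were 469.9 ± 189 on day 2 and 434 ± 201 on day 1 for Cyp4d21, 342 ± 105 and 459.7 ± 173 for Cyp305a1, and 211 ± 80.3 and 213 ± 71.3 for Cyp12d1-p. edgeR's test called 0 of the 5 members and 0 of 9392 genes (0%), while an unadjusted p under 0.05 was given to 1186 genes (12.6%) and to 1 member, Cyp305a1; DESeq2 and limma also called 0 genes. The log2 ratio of day 2 to day 1 for Cyp305a1 was -0.40 (adjusted p = 0.39), and by least squares the difference in log2 CPM was -0.36 ± 0.18 (SE, 95% confidence interval -0.74 to 0.02). For the other 4 genes the log2 ratio lay between -0.12 and 0.12. Over the members the median was -0.05 and over all genes -0.0025.

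**Figure D3:**
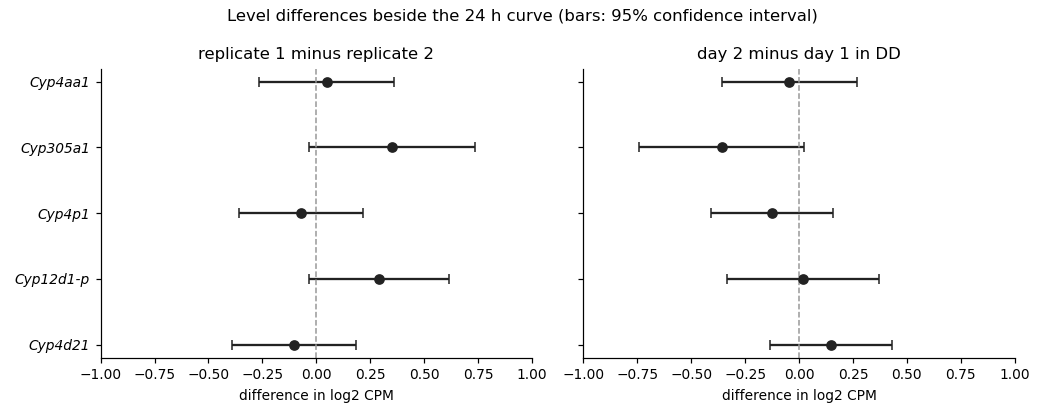
Difference in log2 CPM of each gene between replicate 1 and replicate 2 (left) and between day 2 and day 1 in DD (right), fitted beside the 24 h curve, with 95% confidence intervals. Every interval includes 0, and those of Cyp305a1 reach farthest, to 0.74 in the left panel and to -0.74 in the right.

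The shape of the curves was compared in ways that the ranking had not tested directly. The ranking favoured genes that followed a single cosine curve over both days and both replicates. Members with a 12 h component or a changing curve were thus less likely to be chosen. A 12 h component beside the 24 h curve, which would mark a second daily peak, was called by edgeR in 0 of the 5 members and in 0 of 9392 genes (6.03% at an unadjusted p under 0.05, 0 members); DESeq2 and limma also called 0 genes. The smallest unadjusted p was that of Cyp12d1-p (adjusted p = 0.898).

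The 24 h curve was fitted to each replicate. The amplitude of Cyp4d21 was 0.81 ± 0.15 in replicate 1 and 0.74 ± 0.14 in replicate 2 (SE), with peaks at 17.9 ± 0.69 h and 17.7 ± 0.74 h. That of Cyp4aa1 was 0.52 ± 0.18 in replicate 1 and 0.67 ± 0.13 in replicate 2, with peaks at 2.44 ± 1.28 h and 3.16 ± 0.75 h. Cyp4p1 had amplitudes of 0.54 ± 0.14 in replicate 1 and 0.40 ± 0.13 in replicate 2 and peaks at 3.94 ± 1.01 h and 5.47 ± 1.29 h. Cyp305a1 had 0.58 ± 0.19 in replicate 1 and 0.48 ± 0.19 in replicate 2, with peaks at 2.84 ± 1.27 h and 3.67 ± 1.52 h, and Cyp12d1-p had 0.38 ± 0.18 and 0.58 ± 0.14, with peaks at 16.2 ± 1.76 h and 15.4 ± 0.94 h. Peak times thus kept to their cluster in each replicate. In edgeR's test of the difference between the replicates' curves 0 of the 5 members and 0 of 9392 genes were called (3.06% at an unadjusted p under 0.05, 0 members); DESeq2 and limma also called 0. Genes chosen on both replicates together are bound to differ less between them.

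The curves of the 2 days were set side by side in the same way. The amplitude was 0.49 ± 0.14 on day 2 and 0.74 ± 0.14 on day 1 for Cyp4aa1, 0.38 ± 0.14 and 0.70 ± 0.22 for Cyp305a1, and 0.40 ± 0.15 and 0.54 ± 0.13 for Cyp4p1 (SE, 12 libraries each). It was 0.40 ± 0.18 on day 2 and 0.60 ± 0.15 on day 1 for Cyp12d1-p, and 0.75 ± 0.11 and 0.81 ± 0.17 for Cyp4d21. All 5 fitted amplitudes were smaller on day 2, as were those of 50.1% of all 9392 genes, and the median was 0.40 on day 2 and 0.70 on day 1 over the members, against 0.21 and 0.22 over all genes. The difference between the days' curves was not past edgeR's threshold for any member (unadjusted p of 0.19 or above, adjusted p of 0.965 or above) or for any of the 9392 genes (0%; 6.36% at an unadjusted p under 0.05); DESeq2 and limma also called 0. Genes chosen on both days together are bound to differ less between them. Peak times moved by at most 2.27 h between the days, the least in Cyp4d21, with 18.2 ± 0.54 h on day 2 and 17.5 ± 0.79 h on day 1.

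**Figure D4:**
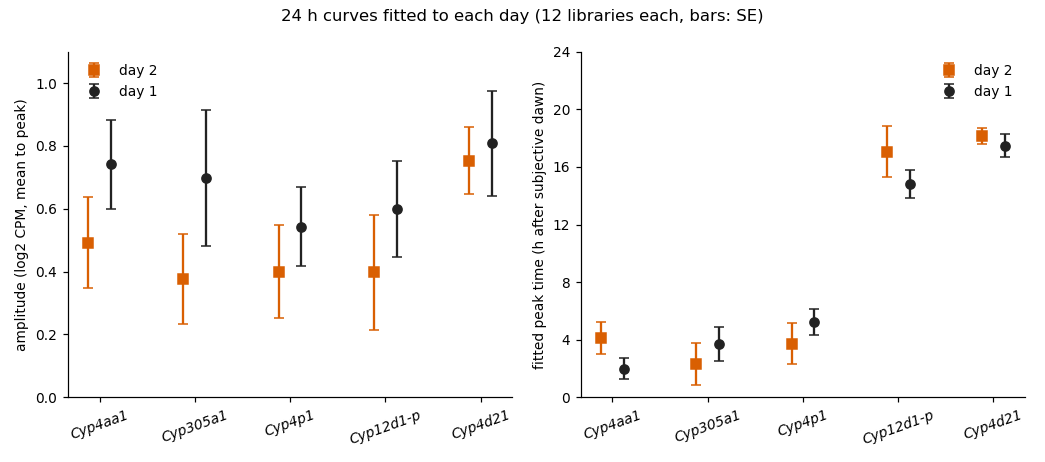
Amplitude (left, log2 CPM) and fitted peak time (right, h after subjective dawn) of 24 h curves fitted to day 2 (orange squares) and day 1 (dark circles), 12 libraries each, with SE bars. In the left panel the SE bars of the 2 days overlap and all 5 squares lie below their circles. The values there run from 0.38 on day 2 and 0.70 on day 1 in Cyp305a1 to 0.75 and 0.81 in Cyp4d21. In the right panel the bars overlap for every gene but Cyp4aa1.

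Of the other P450 genes listed for comparison, 2 of 29 in the CYP4 clan, 3 of 11 in the mitochondrial clan and 1 of 6 in the CYP2 clan could be paired with an identifier, and none of the 6 electron partners could. The pairing came from tables sorted by the study's own rhythm ranking, so genes with low p are over-represented among those named, and the other genes were not analysed here. None of the 6 relatives passed edgeR's test of the 24 h curve, and none differed between the replicates or the days after adjustment. Cyp18a1, the 26-hydroxylase that inactivates ecdysteroids, came nearest (adjusted p = 0.0654), with an amplitude of 0.42 ± 0.08 and a peak at 16.4 ± 0.74 h, between those of Cyp12d1-p and Cyp4d21. It had 403 normalized read counts in replicate 1 and 461 in replicate 2 at 16 h, against 192 and 268 at 4 h, and JTK_CYCLE called it with a lag of 18 h. The mitochondrial relatives Cyp12a5, Cyp12c1 and Cyp49a1 had amplitudes of 0.25 ± 0.10, 0.10 ± 0.07 and 0.24 ± 0.13, each smaller than the 0.48 of Cyp12d1-p. Cyp4ac1 had 0.22 ± 0.11 and stood between 667 and 2497 normalized read counts.

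Cyp4g1, the oenocyte enzyme that makes cuticular hydrocarbons, had a fitted 24 h amplitude of 0.68 with an SE of 0.88 and swung more than any other P450 gene described here. It was highest in the 36 h library of replicate 2, at 11959 normalized read counts, and next highest in that of 44 h in the same replicate, at 11507, whereas the 32 h library of that replicate had 38.1. In the 16 h library of replicate 1 it had 0 raw counts. The members' r with it was close to 0: over the 24 libraries the values, centred within replicates, lay between -0.13 and 0.13.

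**Figure D5:**
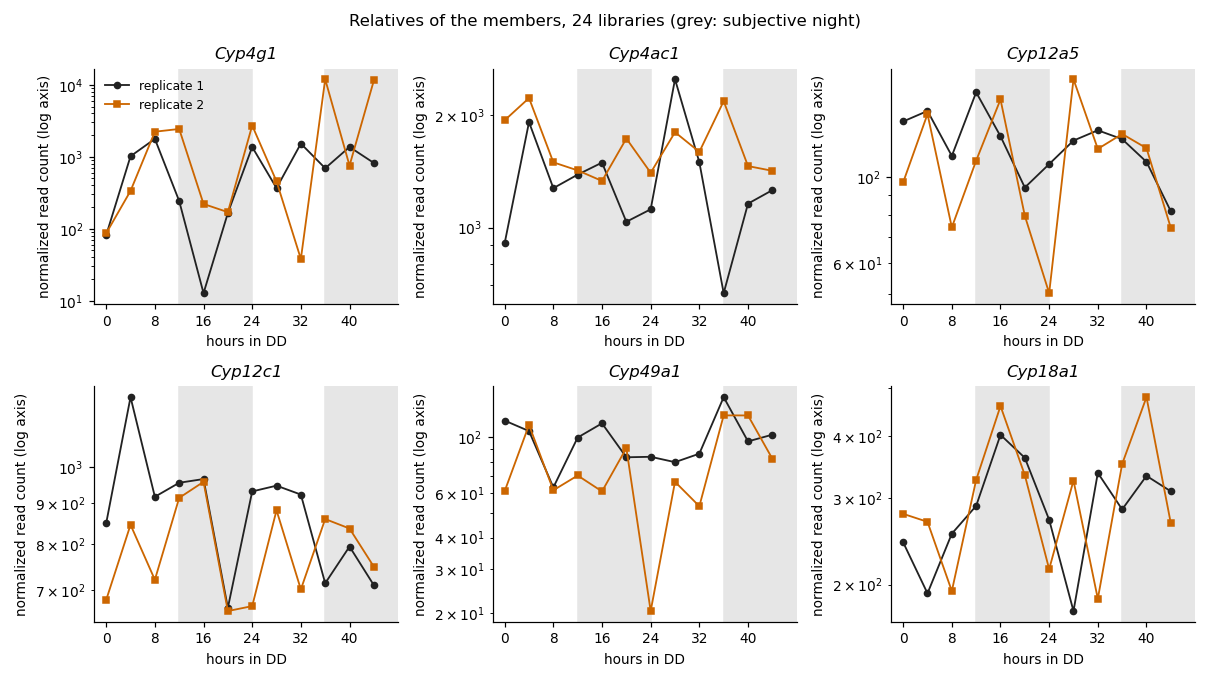
Normalized read counts (log axes, different ranges) of 6 relatives against hours in DD in replicate 1 (dark circles) and replicate 2 (orange squares). Cyp18a1 is high at 16 h in both replicates (403 and 461), while Cyp4g1 reaches 11959 at 36 h in replicate 2 and 694 at that hour in replicate 1.

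The members were also set beside markers of astrocytes and of other cells of the head. In these bulk samples fewer cells of a type and less RNA per cell cannot be told apart. With the fat body marker to, r was 0.42 for Cyp4aa1, 0.39 for Cyp4d21, 0.22 for Cyp305a1, -0.17 for Cyp4p1 and -0.40 for Cyp12d1-p. With sxe2 it was 0.62 for Cyp305a1, 0.28 for Cyp4aa1, 0.27 for Cyp4p1, 0.06 for Cyp4d21 and -0.22 for Cyp12d1-p. JTK_CYCLE called to itself, with a lag of 22 h, but not sxe2, e or Gabat. The rhythm of to thus enters its r with the members. A shared time of day can enter the r of uncalled markers too. The fitted peaks of e and Gabat lay at 2.91 ± 1.81 h and 5.87 ± 2.36 h (SE), and the part of the hour in their r was not tested. With the astrocyte markers r of Cyp4d21 was -0.51 for e and -0.44 for Gabat, and that of Cyp12d1-p was -0.33 and -0.11. The early genes went the other way with the astrocyte markers, with r of 0.40 to 0.54 for e and 0.33 to 0.49 for Gabat, and the hemocyte marker NimC1 had its highest r with Cyp4p1, at 0.54. The 24 h amplitudes of e and Gabat were 0.25 ± 0.12 and 0.15 ± 0.10, smaller than that of every member, and those of to and sxe2 were 0.68 ± 0.17 and 0.11 ± 0.09. The part of the cell makeup in the members' time courses was not tested.

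Of the overlapping and neighbouring genes 4 could be followed, and none of those at Cyp4p1 or Cyp12d1-p was analysed here. Strn-Mlck had r of 0.00 with Cyp4aa1 over 24 libraries and COX6AL -0.18, and CG6739, the gene to the right of Cyp4d21, had -0.22 with it. Kap-alpha1, next to Cyp305a1, had 0.49 with it and was called by JTK_CYCLE with a lag of 2 h, but its amplitude was 0.20 ± 0.06, against 0.53 ± 0.14 for Cyp305a1.

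The named genes whose course over the 24 libraries was most like that of each member, by r in log2 CPM centred within replicates, were described as neighbours in pattern only. For Cyp4aa1 they were Dip-B (0.85), the metalloprotease gene Invadolysin (0.85) and the UDP-glycosyltransferase gene Ugt35b (0.85). For Cyp4p1 they were Esyt2, an extended synaptotagmin (0.84), Eglp4, a channel of the aquaglyceroporin kind (0.82), and CG10311 (0.81). For Cyp4d21 they were Gfat1, the first enzyme of the hexosamine pathway (0.83), rswl (0.83) and CG6409 (0.81). For Cyp305a1 they were Rep, a Rab escort protein (0.81), CG15870 (0.80) and CG9372 (0.78). For Cyp12d1-p they were the odorant-binding protein gene Obp99a (0.81), Gclm, a subunit of the enzyme that starts glutathione synthesis (0.73), and the glucosidase gene tobi (0.72). JTK_CYCLE called 14 of these 15 genes, tobi being the exception, against 2.81% of all 9392 genes. Genes most like members chosen by their rhythm are bound to be called often, and the naming tables favour genes with low p. No unnamed gene stood above the 15 in any of the 5 rankings. Without centring, Cyp12d1-p kept the same 3 genes and Cyp4p1 had 3 others (Idgf1, GLaz and CG11951).

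Correlations with the 6 core clock genes differed in sign between the early and the late members, but they were weak with Clk and did not rank the members alike. With tim, whose fitted peak lay at 15.7 ± 0.40 h, r was 0.75 for Cyp4d21 and 0.65 for Cyp12d1-p, and -0.70 for Cyp4aa1, -0.70 for Cyp4p1 and -0.74 for Cyp305a1. With cry, whose peak lay at 5.57 ± 0.95 h, it was 0.69 for Cyp4p1, 0.64 for Cyp305a1 and 0.53 for Cyp4aa1, and -0.54 for Cyp12d1-p and -0.75 for Cyp4d21. With per r was 0.66 for Cyp12d1-p and 0.46 for Cyp4d21, the reverse of their order with tim, and with vri it was 0.64 and 0.46. With Pdp1 it was 0.63 for Cyp4d21 and 0.48 for Cyp12d1-p. With these 3 genes the early members had r between -0.77 and -0.62. With Clk r was 0.40 for Cyp4aa1, 0.28 for Cyp4p1, 0.24 for Cyp305a1, -0.01 for Cyp4d21 and -0.23 for Cyp12d1-p. All these values share the libraries and the 24 h course on which the members were chosen.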

How the data were processed

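Ribosome-bound RNA of fly heads was sequenced as 48 data sets, 2 technical data sets for each of the 24 libraries (12 time points in 2 biological replicates). The authors trimmed adapters with FastX, aligned single-end reads to Release 6 with TopHat2 2.0.9 and Bowtie, and tallied reads per gene with HTSeq 0.6.1; per the submitters' processing notes SAMtools 0.1.19 was used as well. The deposited values are raw counts per gene, neither filtered nor normalized. The counting mode and strand setting are not given in the sources used here.

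The counts of the 2 data sets of a library were added. The 5 tally lines were kept out of library sizes (8.90% to 64.6% of the tallied total per library). The technical data sets of the members differed by about counting noise, with a chi-square per degree of freedom of 0.80 to 1.55 over 23 pairs; in the 28 h library of replicate 1 the first data set held 91 counts. Replicate 1 held 8203989 to 32826712 counts on genes per library and replicate 2 held 6371034 to 37267216. Counting intervals cover counting error only. Genes that averaged 20 counts or more were kept. JTK_CYCLE was rewritten from its description (periods of 20, 24 and 28 h, 18 templates, quantile normalized counts). edgeR 4.0.16 in R 4.3.3 (TMM, glmQLFit, glmQLFTest, Benjamini-Hochberg over all 9392 genes) tested the 24 h curve, the replicate, the day, a 12 h component and the curve's interaction with replicate and day. Amplitudes, peak times and their standard errors were fitted by least squares to log2 CPM (TMM-scaled, pseudocount 0.5). Correlations at a fixed hour used 100000 permuted pairings. Alternatives used DESeq2 1.42.0, limma 3.58.1, other filters and scalings, a replicate block, and left-out libraries or replicates. Scripts were tested on simulated data (Python 3.11.15, numpy 2.4.6, scipy 1.17.1).

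Identifiers were paired with symbols through the study's supplementary tables and RefSeq (Release 6), which named 1779 of the 9392 genes. The named genes are the 5 members, the listed relatives, and for each member the 3 named genes of highest Pearson's r. The members, the lists and the tests were chosen with earlier results of these data known. No sequence is shown, since no genome or sequence table was used here.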

Additional observations from a re-analysis of the deposited data

How the results depend on the processing

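All 5 members were called by JTK_CYCLE in the main setting and with TMM scaling, at least 1 count, a period of 24 h alone, a replicate block, data sets 2 and 4 alone, or either library that stood apart left out; with counts scaled to the library total Cyp4p1 was not called (adjusted p = 0.0869), and replicate 2 alone kept 3 and replicate 1 alone 1, Cyp4p1. Over all genes JTK_CYCLE called 149 with counts scaled to the library total, 431 with the replicate block and 163 to 337 with 1 replicate left out, against 264. The edgeR curve test called 82 genes by DESeq2's test, 19 by limma, 55 with the replicate block and 1 to 33 with a library or a replicate left out (1 without either replicate), against 31. Of the members it called Cyp4d21 in the main setting and 0 without replicate 1 or without replicate 2; Cyp4aa1 was added with the replicate block, DESeq2's test and DESeq2 size factors, and Cyp4p1 with the replicate block, DESeq2's test, data sets 2 and 4 alone and without the 28 h library of replicate 2. The day test called 0 to 1 genes with a replicate left out and 0 otherwise; the replicate block changed no other call of a member. The main tests of the 24 h curve, the day, the 12 h component and the curve by day had no replicate term. The correlations at a fixed hour set replicate 1 against replicate 2 at each hour, and the other correlations were centred within replicates. Across genes, the difference between the replicates correlated between time points by -0.74 to 0.76 over 66 pairs, with a median of 0.20, above 0.1 in 43. In the replicate comparison Cyp305a1 (adjusted p = 0.0498, time point as a block) and Cyp12d1-p (adjusted p = 0.0476, limma) crossed the threshold, and the other alternatives kept them on their side. The amplitude of Cyp4aa1 moved to 0.48 with data sets 2 and 4 alone and the peak of Cyp4p1 to 5.47 h without replicate 1, each by more than its standard error, as did 0 of the other amplitudes and peaks. Of 10 pairs, 0 passed at a fixed hour under either alternative. For the curve by replicate, a trended dispersion was used with the filter of at least 1 count. Low counts limit Cyp4aa1 and Cyp12d1-p most.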
